A study of Phaseolus vulgaris with 2 samples.

Results

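ARF4, IAA29 and IAA30 are Arabidopsis auxin-pathway regulators, and the study assigned them as orthologs to 3 genes of the common bean, *Phaseolus vulgaris*. The transcript levels of these bean genes were compared between well-watered and drought-treated plants. They are Phvul.005G136900 (ARF4), Phvul.003G167700 (IAA29) and Phvul.007G208800 (IAA30), 3 of the 27197 genes in the deposited expression table. The Arabidopsis names are used for them here, and the assignment was not checked by sequence. They were picked because the study placed them in a network of transcription factors among its drought-induced genes. That choice rests on the same control and drought values given here, so the levels and ratios of the members are a description and were not tested.

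RNA-Seq, which counts sequenced fragments of messenger RNA, was done on aerial tissues of the wild-type cultivar Pinto Saltillo. Plants of both conditions were 45 days old when the treatment began. Control plants were irrigated throughout, whereas plants of the drought condition received no water for 2 weeks. Tissue was taken at the end of the experiment. Tissue was pooled from 6 to 9 plants, and a single RNA pool per condition went into library construction. For every gene the table gives the values of 1 library per condition, so no value has a replicate error and no difference has a replicate check.

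Auxin is the plant hormone that sets growth, organ position and vascular patterning. Auxin response factors (ARFs) bind the promoters of auxin-responsive genes, and Aux/IAA proteins bind to ARFs and repress them. Auxin joins a TIR1/AFB receptor to an Aux/IAA protein, which is then degraded, and the ARF is released. Transcripts of many Aux/IAA genes are themselves raised by auxin, which gives the pathway a negative feedback. In Arabidopsis, ARF4 is known for setting the abaxial (lower) side of leaves and is a target of the small RNAs made from TAS3 transcripts. Arabidopsis IAA29 is known as a gene induced in shade, and Arabidopsis IAA30 lacks the usual degradation motif of the Aux/IAA family and is linked to somatic embryogenesis.

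Levels are given in FPKM, that is sequenced fragments per kilobase of transcript, normalised to the depth of the library. A log2 ratio is the log2 of drought over control after 1 was added to each FPKM value, and it therefore understates changes of weakly expressed genes. A gene was counted as expressed at 1 FPKM or more in either library, which held for 19661 genes and for all 3 members. The summed FPKM was 1319560 in control and 1228410 in drought, 3313 genes were listed at 0 in control and 2916 in drought, and the median log2 ratio of the expressed genes was −0.03. As a check of the tissue, the 149 genes annotated with photosynthesis summed to 35069 FPKM in control and 47616 in drought, so green tissue was well represented in both libraries.

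The 3 members were weakly expressed in the irrigated plants and were higher in the drought library. ARF4 lies at positions 36489346 to 36495490 of chromosome 5. Its level was 1.21 in control and 5.17 FPKM in drought, a ratio of 4.29-fold. The log2 ratio of ARF4 was 1.48, and 2.1 with nothing added to the FPKM values. In bulk tissue such a difference can come from more cells of an expressing type or from more RNA per cell, and these cannot be told apart.

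IAA29 lies at positions 37691689 to 37693077 of chromosome 3. Its level was 0.766 in control and 5.63 FPKM in drought, a ratio of 7.35-fold. The log2 ratio of IAA29 was 1.91, and 2.88 with nothing added. IAA29 was thus the weakest of the 3 in control, whereas in drought its level was close to that of ARF4.

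IAA30 lies at positions 44756497 to 44758043 of chromosome 7. Its level was 1.32 in control and 10.95 FPKM in drought, a ratio of 8.32-fold. The log2 ratio of IAA30 was 2.37, and 3.06 with nothing added. No other gene of the table overlapped any of the 3 loci, whose positions are given as in the deposited table.

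IAA30 had the highest level in both libraries, and ARF4 and IAA29 lay closer together in drought than in control. In control, IAA30 was 1.09 times ARF4 and ARF4 was 1.57 times IAA29. In drought, IAA30 was 2.12 times ARF4, and ARF4 was 0.918 times IAA29. Summed over the 3 genes, the level was 3.29 in control and 21.8 FPKM in drought, with the gap between the lowest and the highest member going from 1.72-fold to 2.12-fold.

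These levels rest on few reads. The lowest FPKM above 0 multiplied by locus length in kilobases was 0.0188 in control and 0.0181 in drought, and was taken as about 1 read. Because a locus includes introns, this gives a ceiling on reads, of about 394 for ARF4, 56 for IAA29 and 108 for IAA30 in control. In drought the ceilings were about 1753, 431 and 935 reads. The counting error was then at least 5.04% for ARF4, 13.4% for IAA29 and 9.62% for IAA30 in control, and at least 2.39%, 4.82% and 3.27% in drought. On the log2 scale with nothing added, it came to at least 0.08 for the ratio of ARF4, 0.20 for IAA29 and 0.15 for IAA30. The gap between ARF4 and IAA30 in control, 1.09-fold, lay within these counting errors. The gap between ARF4 and IAA29 in drought, a ratio of 0.918, was also close to them, so the order of these members in drought is not settled. Counting error leaves out the variation between plants and libraries, which cannot be estimated here.

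**Figure D1:**
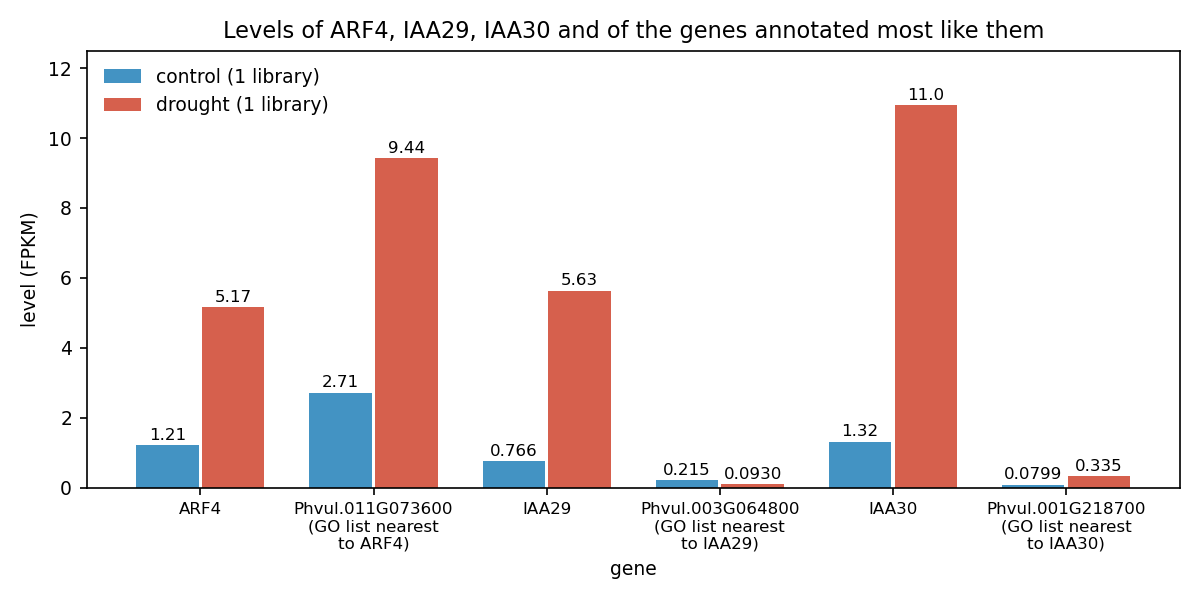
Bars show the level in FPKM (vertical axis from 0) of ARF4, IAA29 and IAA30, and of the gene whose list of GO terms was most like that of each, in the 1 control library (blue) and the 1 drought library (red). All 3 members are higher in drought, from 0.766 to 1.32 FPKM in control to 5.17 to 10.95 FPKM in drought, and there are no error bars because each condition has 1 library.

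Set against the whole table, the members moved from the weak end of the expressed genes towards its middle. In control, 10.2% of the expressed genes had a lower level than ARF4, 6.36% a lower level than IAA29 and 11.2% a lower level than IAA30. In drought these shares were 29.1% for ARF4, 31.1% for IAA29 and 48.4% for IAA30. On the log2(FPKM + 1) scale, all 3 members were at least 2-fold higher in drought, as were 11.7% of the expressed genes, while 6.60% were at least 2-fold lower. At 4-fold or more, IAA30 was the 1 member that passed on this scale, beside 2.48% of the expressed genes higher and 1.62% lower, whereas all 3 passed in FPKM with nothing added. The log2 ratio was higher than that of ARF4 in 5.76% of the expressed genes, than that of IAA29 in 2.88% and than that of IAA30 in 1.51%. Since the members were named as drought-induced genes on these libraries, nothing is read from these shares.

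Among transcription factors, the 1242 expressed genes annotated with sequence-specific DNA binding transcription factor activity, 96 had a higher log2 ratio than ARF4, 34 than IAA29 and 12 than IAA30. In this class, members included, 222 genes were at least 2-fold higher (17.9%) and 94 at least 2-fold lower, and the median log2 ratio was 0.18.

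The Gene Ontology (GO) terms deposited with the table describe the 3 genes differently. ARF4 carries 7 terms and IAA29 and IAA30 carry 9 each, and together they hold 16 distinct terms. The 3 terms common to all are nucleus, regulation of transcription and transcription factor activity. ARF4 is annotated with the response to hormone in general, vegetative phase change and abaxial cell fate specification, and has no term that names auxin. IAA29 and IAA30 share the response to auxin and root development. IAA29 alone of the 3 is annotated with embryonic pattern specification, xylem and phloem pattern formation and negative regulation of transcription. IAA30 alone has gravitropism, somatic embryogenesis, response to cyclopentenone and protein dimerization.

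The other genes with these terms did not share 1 direction. For comparison, 11.7% of all expressed genes were at least 2-fold higher and 6.60% at least 2-fold lower, with a median of −0.03. Xylem and phloem pattern formation, a term of IAA29, was annotated to 81 other expressed genes. Of these, 28 were at least 2-fold higher (34.6%) and 0 at least 2-fold lower, with a median log2 ratio of 0.72. Abaxial cell fate specification, a term of ARF4, had 10 other expressed genes. Of these, 3 were at least 2-fold higher (30.0%) and 0 at least 2-fold lower, with a median of 0.69. In contrast, gravitropism, a term of IAA30, had 133 other expressed genes. Of these, 5 were at least 2-fold higher (3.76%) and 2 at least 2-fold lower, with a median of −0.28. Embryonic pattern specification, carried by IAA29, had 39 others. Of these, 1 was at least 2-fold higher (2.56%) and 0 at least 2-fold lower, with a median of −0.26. For the response to auxin, which IAA29 and IAA30 share, 73 of 329 other expressed genes were at least 2-fold higher (22.2%). A further 28 were at least 2-fold lower, and the median was 0.10.

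IAA29 and IAA30, chosen as drought-induced genes on these libraries, stood near the top of the auxin-annotated genes by ratio. A term naming auxin was found for 687 genes, of which 495 were expressed. Of these, IAA29 and IAA30 included, 109 were at least 2-fold higher (22.0%) and 36 at least 2-fold lower (7.27%), with a median log2 ratio of 0.07. The shares of all expressed genes were 11.7% and 6.60%. By log2 ratio IAA30 was in place 11 and IAA29 in place 25 of the 495 auxin-annotated genes. ARF4, which has no auxin term, would take place 54 of 496. By level they were far lower in the order. IAA30 took place 413 in control and 265 in drought, IAA29 took 441 and 344, and ARF4 would take 422 and 352.

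The genes next to the members in this order were as follows. Just above IAA30 came Phvul.002G069900, listed at 0 FPKM in control and at 4.82 FPKM in drought, with a log2 ratio of 2.54. Just below IAA30 came AUX1 (Phvul.008G106300), the auxin influx carrier, with 2.08 FPKM in control, 14.2 FPKM in drought and a log2 ratio of 2.30. IAA29 lay between Phvul.007G219700 (0.567 and 4.91 FPKM, log2 ratio 1.92) and Phvul.011G038000 (14.8 and 57.9 FPKM, log2 ratio 1.90), both annotated with the response to auxin. ARF4 fell between Phvul.003G089600 (24.0 and 69.1 FPKM, log2 ratio 1.49) and Phvul.011G131500 (4.41 and 14.0 FPKM, log2 ratio 1.47). The neighbours in ratio of IAA29 and ARF4 thus included genes with levels several times those of the members.

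None of the 3 members was among the 5 highest or the 5 lowest genes of the order. The highest log2 ratios were 3.19 for Phvul.007G186500 (auxin transport, 0.232 FPKM in control and 10.3 in drought), 3.15 for Phvul.011G037900, 3.12 for WAT1 (Phvul.001G010100), which in Arabidopsis exports auxin from the vacuole, 2.86 for Phvul.003G230100 and 2.80 for Phvul.002G071500. The lowest were −3.70 for Phvul.002G261700, annotated as an inositol-3-phosphate synthase (347 and 25.8 FPKM), −2.78 for Phvul.003G255900, −2.65 for Phvul.003G042000, −2.56 for DFL1 and −2.53 for Phvul.003G255800.

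**Figure D2:**
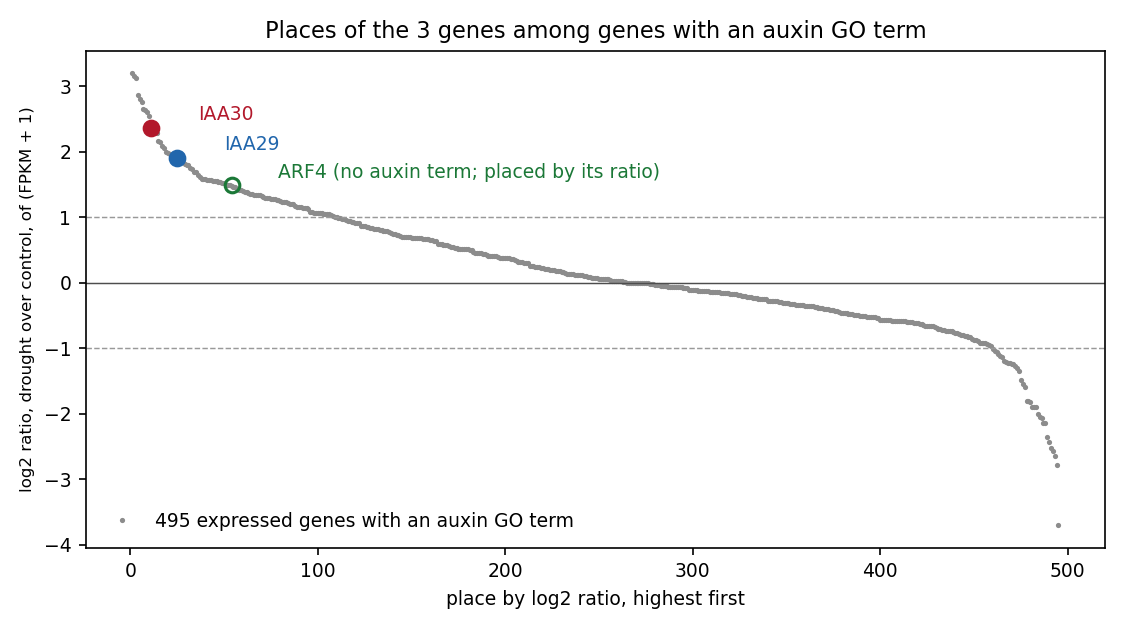
Each grey point is 1 of the 495 expressed genes with an auxin GO term, placed by its log2 ratio of drought over control on the log2(FPKM + 1) scale (vertical axis), highest first (horizontal axis), with dashed lines at 2-fold. IAA30 is in place 11 and IAA29 in place 25, and ARF4, drawn as an open circle because it has no auxin term, falls at place 54.

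Families could not be drawn from sequence here, so the genes most like each member were taken by their GO terms. Phvul.011G073600 carries exactly the 7 terms of ARF4. Its level was 2.71 in control and 9.44 FPKM in drought. With 1 added its log2 ratio, 1.49, was close to that of ARF4, 1.48. With nothing added its ratio was 3.48-fold, below the 4.29-fold of ARF4. The next genes by shared terms, Phvul.006G114300, Phvul.008G118400 and Phvul.010G011600, shared 5 of the terms with ARF4 and had log2 ratios of −0.25, −0.66 and −0.23. Phvul.001G126400, which shared 4 terms with ARF4, had 0.0301 FPKM in control, 2.79 FPKM in drought and a log2 ratio of 1.88. The 5 genes annotated most like ARF4 thus had ratios in both directions.

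Phvul.001G218700 carries the same 9 terms as IAA30, but was near 0, with 0.0799 in control and 0.335 FPKM in drought. IAA30 was thus well above the gene annotated most like it in both libraries. IAA29 had no gene with an identical list. The nearest, Phvul.003G064800, shared 6 terms with IAA29 and was listed at 0.215 in control and 0.0930 FPKM in drought, while the next, Phvul.001G156600, had 13.0 FPKM in control, 37.0 FPKM in drought and a log2 ratio of 1.44.

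The genes closest to the members in both levels at once were also looked up, by the distance between points of log2(FPKM + 1) in the 2 libraries. With 2 values per gene this says only that the levels were alike. Of the 5 nearest to ARF4, 1 carries an auxin term, the flavin monooxygenase gene Phvul.002G313200, annotated with auxin biosynthesis, which had 1.29 in control and 5.12 FPKM in drought. The closest to ARF4 was Phvul.008G200800 (1.20 and 5.13 FPKM). For IAA29 the closest was Phvul.004G140800 (0.744 and 5.57 FPKM), and for IAA30 it was Phvul.002G070800 (1.38 and 10.96 FPKM). None of the 5 nearest to IAA29 or of the 5 nearest to IAA30 carries a term naming auxin.

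The rest of the pathway was counted by GO terms, beginning with perception. The 5 genes annotated with both inositol hexakisphosphate binding and auxin signalling, the combination that TIR1-type receptors carry, were all expressed at higher levels than the members, from 6.43 to 67.6 FPKM in control. All 5 had a log2 ratio above 0, from 0.31 to 1.05, and 1 of them, Phvul.001G202600 (10.2 and 22.1 FPKM), was at least 2-fold higher. The log2 ratio of each of the 3 members was higher than that of any of these 5 genes. The members, unlike these 5 genes, were chosen as drought-induced on these libraries, so nothing is read from this.

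Transcription factors annotated with the response to hormone, the class that holds ARF4, comprised 28 genes. Of the 25 expressed, 6 were at least 2-fold higher (24.0%) and 0 at least 2-fold lower, beside 11.7% and 6.60% of all expressed genes. The median log2 ratio of the class was 0.38. Counts and median include ARF4 itself, which was chosen as a drought-induced gene on these libraries. ARF4 was in place 4 by log2 ratio, after Phvul.011G080100 (1.77 and 7.97 FPKM, log2 ratio 1.70), Phvul.008G242400 (6.98 and 23.8 FPKM, log2 ratio 1.64) and Phvul.011G073600. Phvul.006G084200, with a log2 ratio of 1.39, followed it. At the other end were Phvul.007G149000 at −0.74, Phvul.008G118400 at −0.66, Phvul.003G128800 at −0.58, Phvul.006G114300 at −0.25 and Phvul.010G011600 at −0.23. ARF4 was also among the weakest of the class, in place 24 of 25 by level in control and place 22 in drought, and the strongest, Phvul.002G282200, had 91.1 and 85.8 FPKM.

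Transcription factors annotated with the response to auxin and with dimerization, the class that holds IAA30, comprised 23 genes. Of the 17 expressed, 5 were at least 2-fold higher (29.4%) and 1 at least 2-fold lower (5.88%), beside 11.7% and 6.60% of all expressed genes. The median log2 ratio of the class was 0.47. Counts and median include IAA30 itself, which was chosen as a drought-induced gene on these libraries. IAA30 was in place 1 by log2 ratio, followed by Phvul.007G176600 at 1.55 (10.2 and 31.9 FPKM), Phvul.007G176700 at 1.38 (8.09 and 22.6 FPKM), Phvul.006G102100 at 1.31 (31.8 and 80.2 FPKM) and Phvul.004G166400 at 1.13 (2.38 and 6.43 FPKM). The lowest were Phvul.005G173000 at −1.04 (28.5 and 13.3 FPKM), Phvul.010G108800 at −0.88, Phvul.006G109700 at −0.15, Phvul.009G146000 at 0.15 and Phvul.005G169600 at 0.37. By level IAA30 was in place 16 of 17 in control and place 13 in drought.

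IAA29 has no dimerization term and was placed in the wider class of transcription factors annotated with the response to auxin, of which 116 were expressed. In this class 22 genes were at least 2-fold higher (19.0%) and 13 at least 2-fold lower (11.2%), with a median log2 ratio of 0.13. The members IAA29 and IAA30 are counted in it. The shares of all expressed genes were 11.7% and 6.60%. IAA30 was in place 2 and IAA29 in place 4 by log2 ratio. By level IAA29 was in place 107 in control and place 88 in drought.

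**Figure D3:**
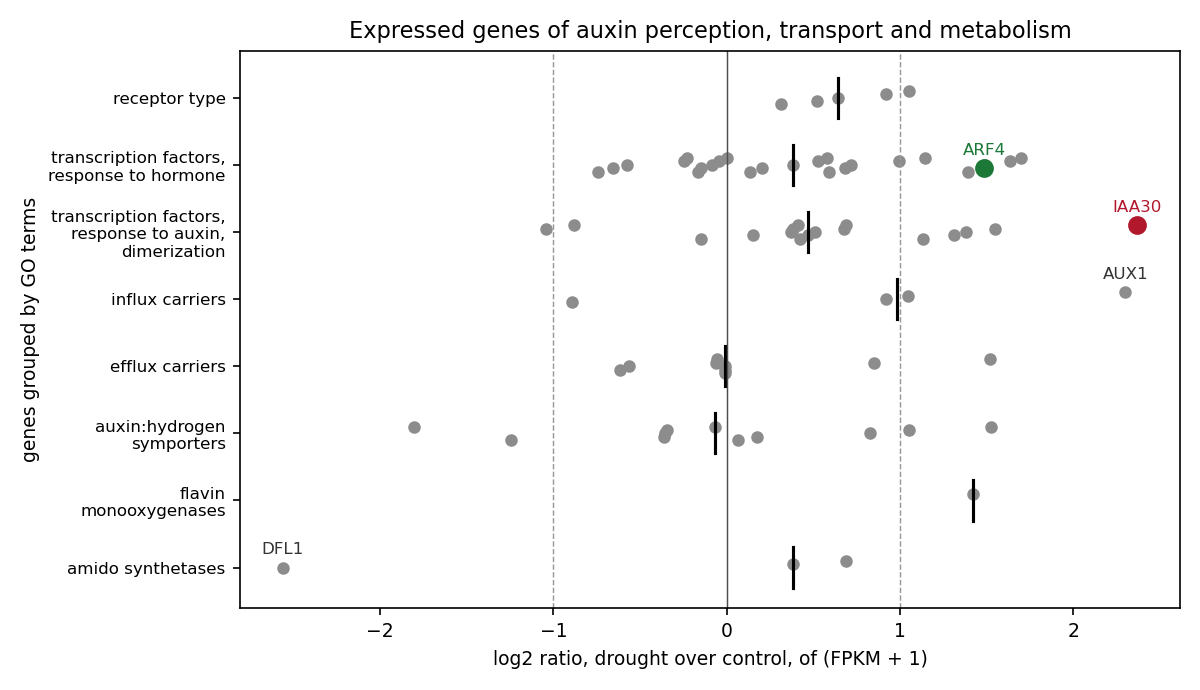
Each point is 1 expressed gene, grouped by GO terms (vertical axis) and placed by its log2 ratio of drought over control on the log2(FPKM + 1) scale (horizontal axis), with black bars at group medians and dashed lines at 2-fold. IAA30 is the rightmost point of its class at 2.37, ARF4 is in place 4 of its class at 1.48, and IAA29 belongs to none of the groups drawn.

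Genes annotated with auxin transport and metabolism gave the surroundings of these regulators. The shares to set beside their counts are 11.7% at least 2-fold higher and 6.60% at least 2-fold lower, over all expressed genes. Of the 4 expressed genes annotated as influx carriers, which bring auxin into cells, 2 were at least 2-fold higher and 0 at least 2-fold lower. AUX1 had the highest log2 ratio of these 4, 2.30. LAX2, named by the study, has no auxin term and is not among them, and its log2 ratio was 2.34. Of the 9 expressed genes annotated as efflux carriers, which move auxin out of cells, 1 was at least 2-fold higher and 0 were at least 2-fold lower. The log2 ratio was above 0 in 2 of these 9 genes and below 0 in 7, down to −0.62, with a median of −0.01. The wider term auxin polar transport had 78 expressed genes, 28 of them at least 2-fold higher (35.9%) and 4 lower (5.13%), with a median of 0.50. This term is not limited to carriers. Among its highest genes were Phvul.002G071500 (polygalacturonase activity, log2 ratio 2.80) and Phvul.007G236800 (pectate lyase activity, log2 ratio 2.64), which are annotated as wall enzymes. The counts at the same 2-fold limit were 8 of 57 expressed genes higher, 5 lower and a median of 0.03 for auxin mediated signalling, and 1 of 18 higher and 2 lower for auxin homeostasis, with a median of 0.39. Of the 11 expressed auxin:hydrogen symporters 2 were at least 2-fold higher and 2 at least 2-fold lower, with a median of −0.07. The full symporter and efflux lists overlap, as in Phvul.009G208200, and are not separate kinds of carrier. The shared genes were all under the limit for expressed genes, so the counts given here have no gene in common. The efflux list leaves out Phvul.002G094000, 1 of the 2 higher symporters (31.7 and 93.0 FPKM, log2 ratio 1.52), so it does not cover all carriers. For indoleacetic acid biosynthesis, 19 of 94 expressed genes were at least 2-fold higher and 10 at least 2-fold lower, with a median of 0.12. This list also holds Phvul.010G123100, which the study names as a pectinesterase gene. The list of auxin mediated signalling holds Phvul.006G133700, which the study names as an endoglucanase gene. Among 10 flavin monooxygenase genes of auxin biosynthesis, the 1 expressed gene was Phvul.002G313200, the gene with levels close to those of ARF4. Among the 3 expressed amido synthetases, which attach amino acids to auxin and so lower its free level, DFL1 (Phvul.011G153400) went from 51.8 FPKM in control to 7.95 FPKM in drought, so its log2 ratio was −2.56. The other expressed amido synthetases, Phvul.011G108500 and Phvul.005G111000, had log2 ratios of 0.69 and 0.38.

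The study also listed 9 other auxin-related genes among its changed genes, chosen on these same libraries, so that their direction is no independent evidence. The log2 ratios of the 6 higher ones ran from 1.26 for TRN2 to 3.12 for WAT1, and enclosed those of the 3 members. LAX2, an influx carrier by name, had 0.746 in control and 7.84 FPKM in drought, levels near those of IAA29. LAX2 carries no auxin term in the deposited annotation, like ARF4 and like 4 of these 9 genes in all. The 3 lower ones were DFL1, PKS2 (6.86 and 1.10 FPKM) and the ortholog of AT1G69160 (13.3 and 2.82 FPKM), with log2 ratios from −2.56 to −1.90.

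The 6 markers of growing and vascular cells that were looked up were higher in the drought library, as were the members. Of 6 such genes 6 were at least 2-fold higher, namely STM and WOX4 (shoot meristem and cambium), CYCB1;4 (dividing cells) and IRX1, IRX3 and CESA4 (secondary walls), with folds from 7.68 to 20.5. Their summed level was 3.48 in control and 45.2 FPKM in drought, and single markers ran from 0.166 to 1.25 FPKM in control and from 2.06 to 18.1 FPKM in drought, so none was at 0. The fold of IAA30, 8.32, was near the lower end of this range, and those of IAA29, 7.35, and ARF4, 4.29, were below it. These markers, too, come from genes the study listed as changed. Of the 157 expressed genes annotated with cytokinesis by cell plate formation, 23 were at least 2-fold higher (14.65%) and 0 at least 2-fold lower. The shares of all expressed genes were 11.7% and 6.60%. The median log2 ratio of the cytokinesis genes was 0.09, with 88 above 0 and 69 below 0, so this wider list did not rise as the 6 markers did. The part of these cells in the levels of ARF4, IAA29 and IAA30 was not tested.

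The chromosomal neighbours of the 3 genes, 5 on each side, had smaller log2 ratios than the members. Of the 7 expressed neighbours of ARF4, 1 was at least 2-fold higher, Phvul.005G136600 (38.9 and 79.6 FPKM, log2 ratio 1.01), and the range was from −0.42 to 1.01 with a median of −0.05. Of the 9 expressed neighbours of IAA29, 1 was at least 2-fold higher, Phvul.003G167300 (0.903 and 5.06 FPKM, log2 ratio 1.67), and the range was from −0.87 to 1.67 with a median of 0.44. The 7 expressed neighbours of IAA30 ranged from −1.16 to 0.58 with a median of −0.12, and 0 of them were at least 2-fold higher and 2 at least 2-fold lower. Each member had a higher log2 ratio than each of its 10 neighbours. Since the members were named as drought-induced genes on these libraries, nothing is read from this. Among all expressed genes, 11.7% were at least 2-fold higher and 6.60% at least 2-fold lower.

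The nearest gene to each member differed little between the libraries or less than the member did. Phvul.005G137000, 1687 bases from ARF4, had 9.66 in control and 9.30 FPKM in drought. Phvul.007G208900, 5534 bases from IAA30 and annotated with chitinase activity, had 4.69 and 4.34 FPKM. Phvul.003G167600, 8539 bases from IAA29, had 11.2 and 19.2 FPKM, a log2 ratio of 0.72. Near IAA30, Phvul.007G208400, a transcription factor gene annotated with xylem development and the response to auxin, was listed at 0.127 in control and 0.798 FPKM in drought, under the limit for expressed genes.

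**Figure D4:**
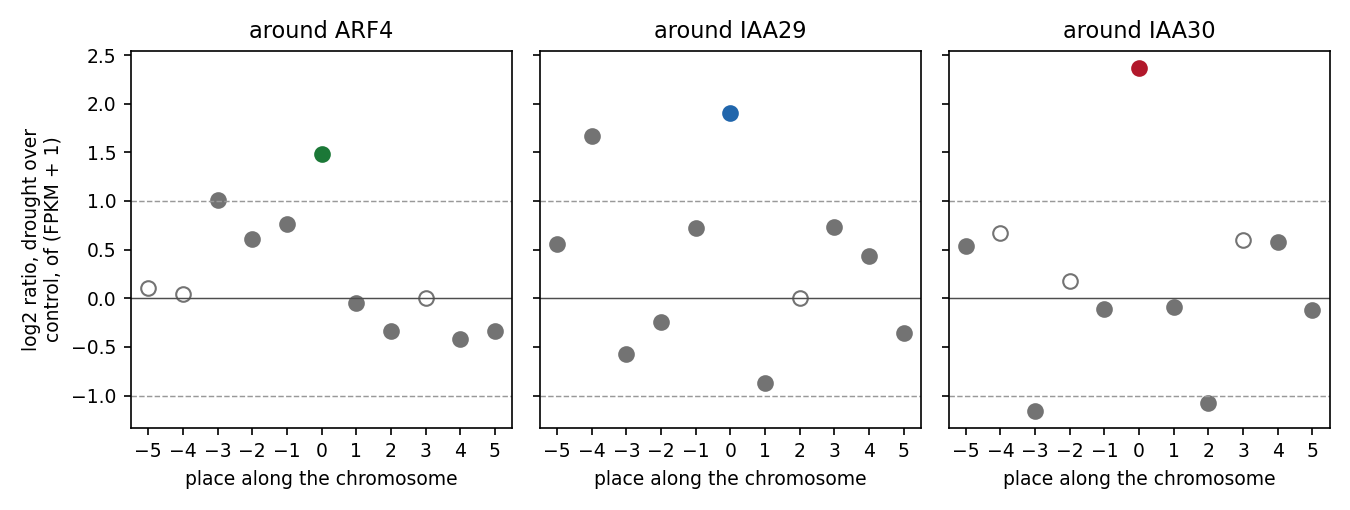
Panels show the log2 ratio of drought over control on the log2(FPKM + 1) scale (vertical axis) of ARF4, IAA29 and IAA30 (coloured, place 0) and of 5 genes on each side in their order along the chromosome (horizontal axis), with open circles for genes under 1 FPKM in both libraries and dashed lines at 2-fold. In each panel the member has the highest ratio, 1.48 for ARF4, 1.91 for IAA29 and 2.37 for IAA30. The members, unlike their neighbours, were chosen as drought-induced genes on these libraries.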

How the data were processed

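RNA-Seq was done on 2 pooled samples, 1 per condition, grouped by their labels. The labels speak of 2 replicates per condition, whereas the table gives 1 value for each gene and condition, which was treated as 1 library. The authors made the deposited FPKM values with Cuffdiff after Trimmomatic, FastQC, TopHat alignment to the G19833 genome, Cufflinks and Cuffmerge. The submitters' processing notes also name CASAVA 1.8.2, and versions of the other tools are not given in the sources used here. The gene identifiers point to an earlier annotation release than the one cited in the methods, so the build behind the loci is unsettled, and 0 of the 27197 identifiers matched the RefSeq table supplied. The deposited table also holds the authors' own comparison of drought with control, as log2 fold changes, a test score, p-values and q-values, and none of these was used. Of the per-sample columns, 0 were left unused.

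The members and lists were chosen with earlier results of these data known. Ratios were log2((drought FPKM + 1)/(control FPKM + 1)), over genes with at least 1 FPKM in either library, and 2-fold and 4-fold limits replaced a test, since each condition has 1 library. Python 3.11.15, pandas 2.3.3, NumPy 2.4.6 and matplotlib 3.10.9 were used. The code for ratios and 2-fold counts was tested on simulated data, and the code for ranks and GO lists was not. Lists were defined by GO terms, present for 24570 genes. In 227 genes the GO text stops at 1024 characters, none of them a member. ARF and Aux/IAA families, planned by description, could not be identified and were replaced by combinations of GO terms, and SAUR, TOPLESS and TAA1 genes were not analysed here. Named genes were the members, the nearest genes by GO list, by both levels and by auxin rank, the 5 highest and 5 lowest of the main lists, and the auxin genes listed by the study. The numbers of reads were not used, and depth was judged from the lowest values above 0. Alternatives varied the added constant, the scaling, the filter, the fold limit and the auxin terms.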

Additional observations from a re-analysis of the deposited data

How the results depend on the processing

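Of 96 alternative values computed, 75 stayed close to the reported value, 21 moved and 0 reversed. The margin for counts and places was wide. For example, place 54 of ARF4 becoming 38 with 5 FPKM required in either library still counted as close. ARF4, IAA29 and IAA30 stayed at least 2-fold higher in drought under every added constant and scaling tried. The added constant mattered most, as the members were low in control. With 0.1 added in place of 1, the log2 ratios were 2.01 for ARF4, 2.73 for IAA29 and 2.96 for IAA30, and with 0.01 they were 2.09, 2.86 and 3.05. Among the auxin genes IAA30 then took place 20 with 0.1 and place 26 with 0.01, in place of 11. With at least 1 FPKM required in both libraries, IAA30 took place 6 and ARF4 place 30, and IAA29 was removed because its control level was under the limit. Dividing by the 75th percentile, scaling to equal sums or centring on the median left the ratios of ARF4 at 1.56, 1.44 and 1.51, those of IAA29 at 1.98, 1.82 and 1.94, and those of IAA30 at 2.45, 2.31 and 2.39, so IAA29 stayed under 4-fold with 1 added.

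Counts over all genes changed with the filter and with the added constant. With 0.1 and 0.01 added, 3116 and 3188 genes were at least 2-fold higher, changes that were counted as close. The 2309 genes at least 2-fold higher became 1451 with 1 FPKM required in both libraries, 1520 with 5 FPKM in either, and 487 at 4-fold, and the 1298 lower genes became 318 at 4-fold. Auxin-annotated genes at least 2-fold higher went from 109 to 69 and 70 under these 2 filters, and genes of the response to auxin from 75 to 42 and 43. Receptor-type genes at least 2-fold higher numbered 2 with either smaller constant and with the 75th percentile scaling, in place of 1. The share of higher genes among the 2-fold calls was 64.0% as reported and between 56.4% with 1 FPKM in both libraries and 69.9% with the 75th percentile scaling. Terms naming indoleacetic or indolebutyric acid were added after seeing the data, and put IAA30 at place 13, IAA29 at 31 and ARF4 at 69.

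No paired analysis was possible because each condition has 1 library, and for the same reason no replicate was left out. Variation between plants and the treatment cannot be told apart. The members' control levels rest on few reads, about 56 at most for IAA29.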
